A study of Homo sapiens with 9 samples.

Results

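Ribosome biogenesis factors are the proteins that cut, modify and fold the precursor of ribosomal RNA and carry the 2 unfinished ribosomal subunits out of the nucleus. They were taken here as the genes that the deposited table assigns to the KEGG pathway for ribosome biogenesis in eukaryotes, after the removal of any row named as a ribosomal or small nucleolar RNA gene. This gave 74 of the 33861 genes in the table. Membership follows the pathway term alone, but the pathway was chosen with earlier results of these data known. The RNA came from HCT116, an established human colorectal carcinoma cell line, and was sequenced as 9 libraries in 3 groups of 3. NC cells were the control, as labelled, Activin cells received activin A at 100 ng/mL for 5 days, and Activin+HGF cells received the same activin course and then hepatocyte growth factor at 20 ng/mL for a further 5 days. The sources used here do not state how long NC cells were cultured, what they were given, or whether activin was kept in the medium while HGF was present. The action of HGF and the further 5 days in culture therefore cannot be told apart. Nor can the action of activin be told apart from any difference in culture between NC and Activin cells. Nothing in the labels says that the 3 libraries of a group came from separate cultures, so the p-values below measure the spread between these libraries, which may be technical.

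Ribosome assembly starts in the nucleolus, where the small-subunit processome, a large particle built from the UTP subcomplexes, forms on the nascent precursor RNA while box C/D and box H/ACA small nucleolar ribonucleoproteins (snoRNPs) methylate the RNA or convert uridines to pseudouridines. RNase MRP and other nucleases separate the precursors of the subunits, GTPases and AAA ATPases remodel the large-subunit precursor, and export receptors of the XPO1 and NXF1 systems move cargo through the nuclear pore. In tumour cells many of these genes are targets of the transcription factor MYC, and their output follows growth and cell division.

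The libraries held between 57453977 and 77016167 gene counts, and levels are given as FPKM, the fragment count normalized for gene length and library size. Epithelial markers EPCAM, CDH1, KRT8, KRT18 and KRT19 lay between 9.77 and 438 FPKM in every library, whereas the intestinal epithelial marker VIL1 stayed at or below 0.03. Of the markers of other cell types, COL1A1 ranged from 2.22 to 5.8 FPKM, and PTPRC, PECAM1, CDH5, COL1A2, PDGFRB and ALB did not exceed 0.34. Activin replicate 2 and Activin+HGF replicate 1 stood apart from the other libraries of their groups. The chi-square per degree of freedom against their group mates was between 216 and 276, compared with 60.6 to 86.4 for every other pair within a group. The TMM scaling factor, which corrects for the make-up of a library, was also lowest in these libraries of the 2 treated groups, at 0.988 for Activin replicate 2 and 0.783 for Activin+HGF replicate 1.

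Ribosome biogenesis factors were lower as a group in activin-treated cells and were still lower after HGF. Their share of all FPKM was 0.377% to 0.424% in the NC libraries, 0.265% to 0.317% in the Activin libraries and 0.259% to 0.296% in the Activin+HGF libraries. The NC libraries did not overlap with either treated group, and the 2 treated groups overlapped with each other. Relative to the NC mean, the median member stood between -0.04 and 0.04 in the NC libraries, on the log2 scale of TMM-scaled counts (CPM). The same median lay between -0.63 and -0.52 in the Activin libraries and between -0.74 and -0.45 in the Activin+HGF libraries. In bulk RNA, fewer cells with a high level of a transcript and less of it per cell cannot be told apart.

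**Figure D1:**
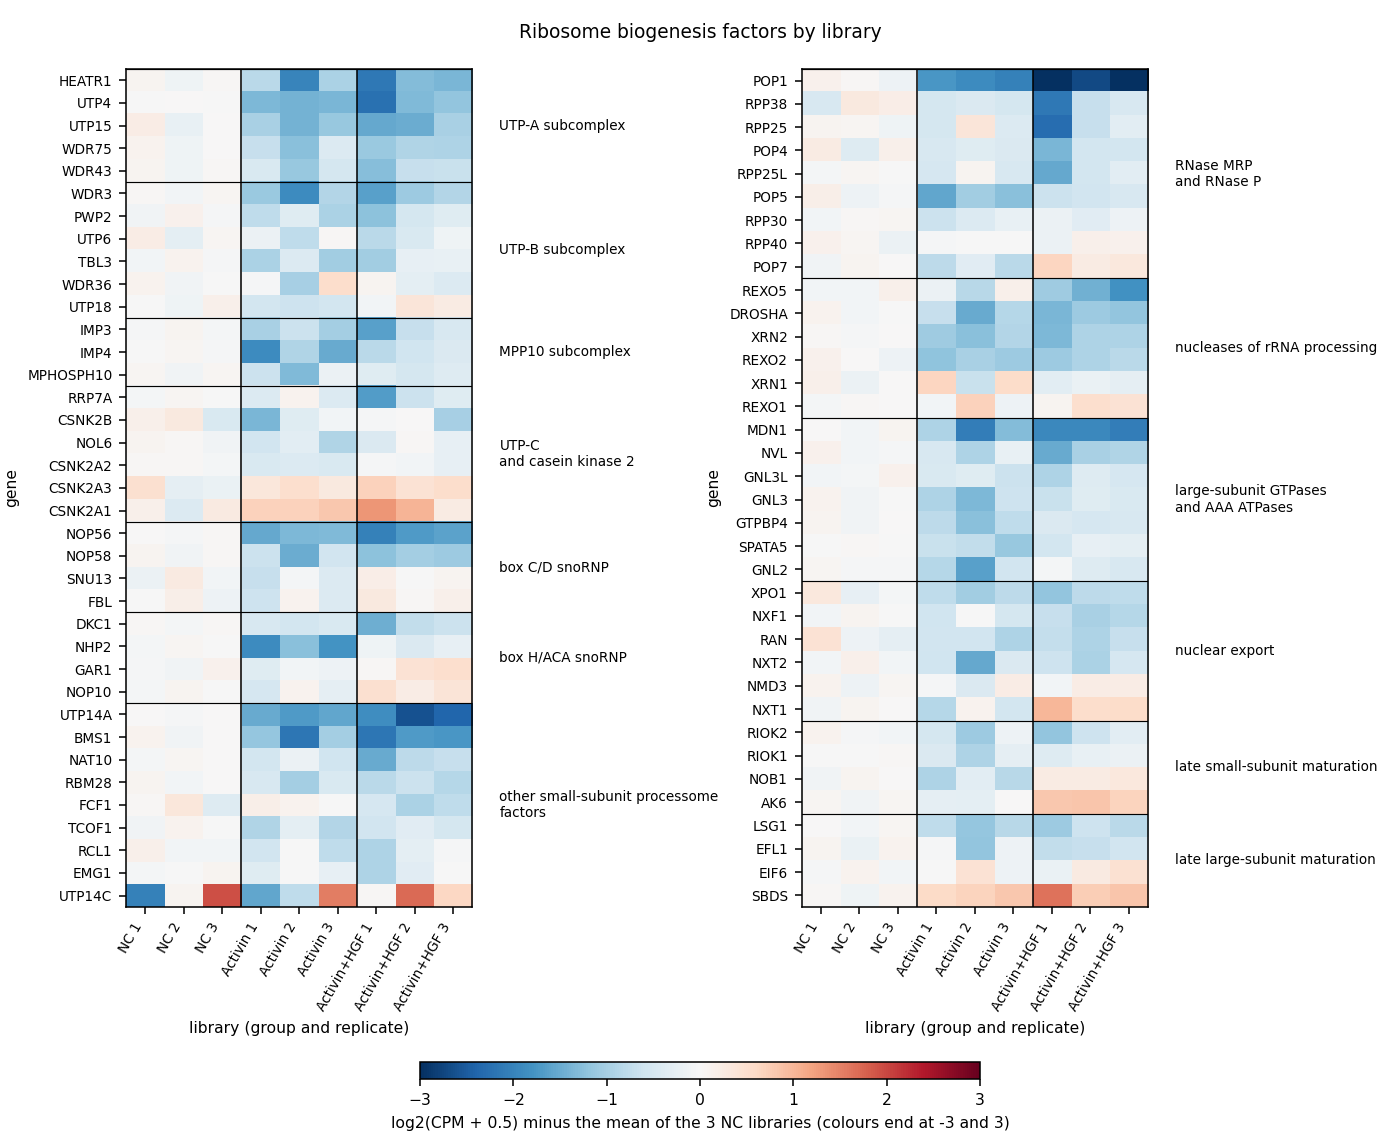
Each row is a ribosome biogenesis factor, grouped by role, and each column is a library. Colour shows log2(CPM + 0.5) of the TMM-scaled counts minus the mean of the 3 NC libraries, with the ends of the scale at -3 and 3. Most rows are blue in all 6 treated libraries, and POP1 is darkest in Activin+HGF. The red rows include SBDS, CSNK2A1 and CSNK2A3 and, after HGF, AK6, NXT1, POP7, NOP10 and NOB1.

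After activin, 30 of the 73 members tested fell (41.1% of them, against 8.41% of the 20988 genes tested) and none rose (against 9.58% of all genes). Of the 30, 14 fell by at least 2-fold, against 4.62% of all genes, while 6.78% of all genes rose by that much. At an unadjusted p under 0.05, 2 members were higher and 41 lower by edgeR's quasi-likelihood test, and DESeq2 and limma each called 1 member higher, SBDS. All genes were not counted at that unadjusted threshold, so no background share stands beside its counts. The median log2 fold change was -0.56 over the members and 0.02 over all genes tested. Between Activin+HGF and NC, 29 members fell (15% of all genes) and 3 rose (16.4% of all genes), with 14 falling by at least 2-fold (10.2% of all genes) and a median of -0.60 beside -0.03 over all genes. Both comparisons use the same NC libraries. One member, NXF3, was not tested because it held 41 counts in all libraries together.

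From Activin to Activin+HGF, 7 members rose and 3 fell, against 7.41% and 5.45% of all genes, which is 9.59% and 4.11% of the members tested. By at least 2-fold, 3 rose and 2 fell, or 5 in all, against 3.87%, 4.21% and 8.09% of all genes. The median change was 0.04 over the members and -0.04 over all genes. Scaling by library totals in place of TMM moved the median of all genes by -0.34 in this comparison, by -0.27 in Activin+HGF against NC and by 0.08 in Activin against NC. Relative to the median of all genes, the members' median was 0.08 with TMM and 0.10 with library totals in this comparison, -0.58 and -0.57 after activin, and -0.56 and -0.55 in Activin+HGF against NC. With library totals the split between Activin and Activin+HGF was 4 higher and 8 lower, and after activin it was 1 higher and 22 lower. Of all genes, 3.3% were then higher and 11.5% lower between Activin and Activin+HGF, and 10.7% higher and 6.17% lower after activin. FPKM values are not TMM-scaled, so between Activin and Activin+HGF the ratio of mean FPKM stood 0.37 below the edgeR log2 fold change in the median gene.

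Leaving out single libraries changed these counts. After activin, 14, 18 and 19 members remained lower without NC replicates 1, 2 and 3. Without Activin replicates 1, 2 and 3, 20, 36 and 22 were lower. The share of all genes that were lower moved with these counts, from 3.73% without NC replicate 1 to 9.75% without Activin replicate 2. From Activin to Activin+HGF, 1 member rose and 1 fell without Activin replicate 1, 12 rose and 10 fell without Activin replicate 2, and 3 rose and 1 fell without Activin replicate 3. Of all genes, 1.28% rose and 1.85% fell without Activin replicate 1, 12% and 8.53% without Activin replicate 2, and 2.09% and 2.69% without Activin replicate 3. In the same comparison 6 rose and 4 fell without Activin+HGF replicate 1, 5 rose and 1 fell without replicate 2, and 5 rose and 1 fell without replicate 3. The shares of all genes that rose and fell were then 4.35% and 3.51%, 4.43% and 2.98%, and 4.72% and 3.74%. In Activin+HGF against NC, 26 members were lower without Activin+HGF replicate 1, and between 24 and 29 were lower over all libraries left out in turn. Of all genes, 11.8% were lower without Activin+HGF replicate 1, and between 8.58% and 11.8% were lower over all these fits. Of the 3 members that rose in Activin+HGF against NC, 2 still did without NC replicate 1 or 2 or Activin+HGF replicate 1 or 2.

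The deepest fall was that of POP1 (ENSG00000104356, chromosome 8, 98117293 to 98159835), the large protein subunit shared by RNase MRP, which cuts the ribosomal RNA precursor, and RNase P, which trims transfer RNAs. POP1 measured 12.1, 10.8 and 9.70 FPKM in NC, 3.54, 2.71 and 2.87 in Activin, and 0.87, 1.38 and 0.94 in Activin+HGF. The 3 groups did not overlap and stood in that order. The log2 fold change was -1.92 ± 0.20 (SE) after activin (adjusted p = 0.000203, edgeR) and -1.14 ± 0.19 from Activin to Activin+HGF (adjusted p = 0.00743). Activin+HGF stood 8.36-fold below NC (log2 fold change -3.06 ± 0.21, adjusted p = 1.61e-05), and none of the 17 alternative fits ended the call in any of the 3 comparisons.

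Of the 9 protein subunits of these ribonucleases, 3 fell after activin (8.41% of all genes) and 3 in Activin+HGF against NC (15% of all genes). From Activin to Activin+HGF 2 rose (7.41% of all genes). POP5 fell by 1.33 ± 0.20 on the log2 scale after activin (adjusted p = 0.00173) and rose by 0.75 ± 0.20 with HGF (adjusted p = 0.0366), a rise that was lost in 11 of 17 alternatives, those without Activin replicates 1 and 3 and without each Activin+HGF library among them. In Activin+HGF against NC the fall of POP5 was 0.58 ± 0.20 (adjusted p = 0.0476), lost without any 1 library of either group. POP7 measured 36.7, 39.4 and 38.7 FPKM in NC, 24.8, 28.9 and 23.9 in Activin and 43.6, 39.8 and 40.3 in Activin+HGF. Its Activin libraries lay below all others, and its Activin+HGF libraries lay just above the NC libraries. The fall of POP7 after activin was 0.63 ± 0.19 on the log2 scale (adjusted p = 0.0445) and was not called without NC replicate 1, 2 or 3 or without Activin replicate 1 or 3. Its rise with HGF was 1.05 ± 0.19 (adjusted p = 0.0103) and was not called without Activin replicate 1. POP4 fell in Activin+HGF against NC (log2 fold change -0.81 ± 0.26, adjusted p = 0.0354), a call lost without NC replicate 1 or 3 or Activin+HGF replicate 1. RPP25, RPP25L, RPP30, RPP38 and RPP40 passed in no comparison. RPP25 and its paralogue RPP25L were at 0.63 and 3.95 FPKM in Activin+HGF replicate 1, the library that stood apart, and at 2.58 to 3.35 and 9.60 to 11.1 FPKM in the other Activin+HGF libraries.

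**Figure D2:**
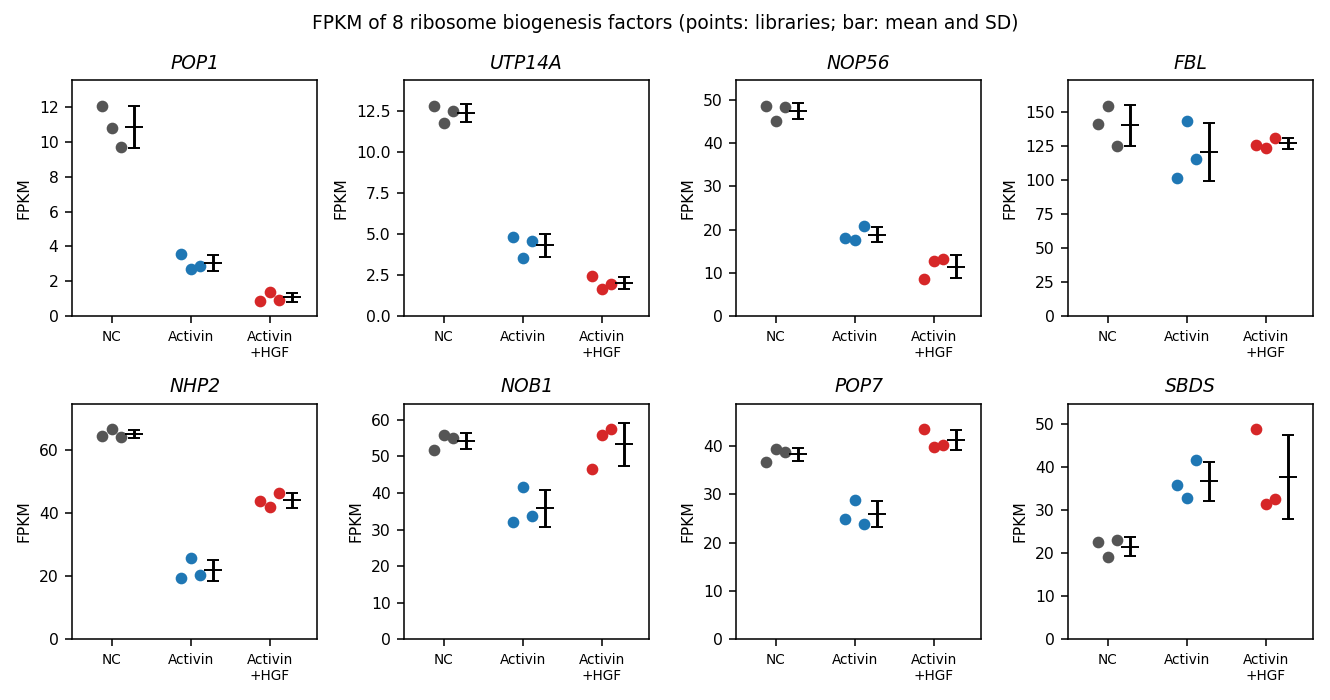
FPKM of 8 ribosome biogenesis factors in the 9 libraries, with a point for each library and a bar for the mean and SD of each group of 3. POP1, UTP14A and NOP56 step down from NC to Activin to Activin+HGF, NHP2, NOB1 and POP7 are lowest in Activin, the FBL groups overlap, and SBDS is lowest in NC.

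UTP14A (ENSG00000156697, chromosome X, 129906121 to 129929761), a processome component, showed the next deepest fall in Activin+HGF against NC. It measured 12.9, 11.8 and 12.5 FPKM in NC, 4.82, 3.53 and 4.59 in Activin, and 2.43, 1.66 and 1.94 in Activin+HGF, with no overlap between groups. UTP14A fell by 1.61 ± 0.21 on the log2 scale after activin (adjusted p = 0.000864) and stood 4.92-fold below NC in Activin+HGF (adjusted p = 7.89e-05), while the step between the treated groups was -0.69 ± 0.21 (adjusted p = 0.0568) and passed in 8 of 17 alternatives. Its near-identical retrocopy UTP14C ranged from 0.17 to 3.81 FPKM within the NC group alone, lies within the span of ALG11, and may share reads with UTP14A. The GTPase BMS1, which acts in the processome, fell from 19.4 to 23.3 FPKM in NC to 4.44 to 11.5 in Activin and was at 3.4 to 5.62 in Activin+HGF. BMS1 changed by -1.38 ± 0.28 after activin (adjusted p = 0.00718) and by -1.87 ± 0.28 in Activin+HGF against NC (adjusted p = 0.000911).

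Most of the UTP-A subcomplex, the part of the processome that binds the precursor RNA first, fell. After activin 4 of its 5 members were called lower (8.41% of all genes), and in Activin+HGF against NC 5 of 5 (15% of all genes). UTP4 went from 20.3, 19.6 and 19.9 FPKM in NC to 8.66, 7.07 and 8.38 in Activin and 3.03, 6.88 and 7.34 in Activin+HGF. Both treated groups lay below every NC library and overlapped with each other. The log2 fold change of UTP4 was -1.39 ± 0.24 after activin (adjusted p = 0.00361) and -1.52 ± 0.24 in Activin+HGF against NC (adjusted p = 0.0013). The gene of UTP4 overlaps SNTB2 on the same strand, so reads of the overlap may belong to either. HEATR1, the largest UTP-A protein, was at 12.7, 10.5 and 11.9 FPKM in NC, 7.40, 2.79 and 6.60 in Activin, and 1.89, 4.13 and 3.80 in Activin+HGF. Its lowest values in the treated groups came from Activin replicate 2 and Activin+HGF replicate 1. HEATR1 fell by 1.18 ± 0.31 after activin (adjusted p = 0.0255), a call lost without any 1 of the NC libraries or Activin replicate 3, and stood at -1.57 ± 0.31 in Activin+HGF against NC (adjusted p = 0.00421). UTP15 and WDR75 also fell after activin, by 1.20 ± 0.23 (adjusted p = 0.00555) and 0.75 ± 0.21 (adjusted p = 0.0337), and the call of WDR75 was lost without any 1 of the NC libraries or Activin replicate 1. WDR43, the fifth member, had a log2 fold change of -0.69 after activin (adjusted p = 0.0633), and its fall in Activin+HGF against NC was lost without NC replicate 1 or 3.

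The other subcomplexes changed in part. In the UTP-B subcomplex, WDR3 and UTP18 fell after activin (8.41% of all genes) and 4 of 6 members did not pass. In Activin+HGF against NC 1 of the 6 fell, or 16.7%, near the 15% of all genes. WDR3 fell by 1.25 ± 0.27 after activin (adjusted p = 0.0106) and remained at -1.17 ± 0.27 in Activin+HGF against NC (adjusted p = 0.00863), and the former call was lost without NC replicate 1. UTP18 fell by 0.58 ± 0.17 after activin (adjusted p = 0.0354), a call lost in 10 of 17 alternatives, those without any 1 of the NC libraries or Activin replicate 1 or 3 among them. TBL3, UTP6 and WDR36 were at -0.78, -0.28 and -0.04 after activin and were called in no comparison. PWP2, the UTP-B scaffold, had a log2 fold change of -0.68 in both comparisons with NC (adjusted p = 0.0823 after activin and 0.058 after activin and HGF), and it passed in 4 and 9 of 17 alternatives. In the MPP10 subcomplex IMP4 fell by 1.39 ± 0.24 after activin (adjusted p = 0.00333) and IMP3 by 0.88 ± 0.27 (adjusted p = 0.0487), the latter call lost without any 1 library of NC or Activin, while MPHOSPH10 itself did not pass (log2 fold change -0.66, adjusted p = 0.107). In Activin+HGF against NC, IMP3 fell by 0.86 ± 0.27 (adjusted p = 0.0344, edgeR), a call lost in 5 of 17 alternatives. IMP4 was at -0.61 there (adjusted p = 0.0741) and passed in 6 of 17 alternatives.

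Of the 6 genes of the UTP-C subcomplex and casein kinase 2, none passed after activin by edgeR, where 9.58% of all genes rose and 8.41% fell. In Activin+HGF against NC 1 of the 6 rose, or 16.7%, near the 16.4% of all genes. At an unadjusted p under 0.05 by edgeR, 2 were lower and 1 higher after activin, without a share of all genes for that threshold. CSNK2A1, a catalytic subunit of casein kinase 2, measured 5.13, 3.31 and 5.39 FPKM in NC, 8.18, 6.91 and 8.67 in Activin, and 8.29, 7.99 and 4.51 in Activin+HGF. The Activin libraries lay above NC, whereas the lowest Activin+HGF library lay within the NC range. The rise in Activin+HGF against NC was 0.91 ± 0.27 on the log2 scale (adjusted p = 0.0271) and was lost in 7 of 17 alternatives, including those with library totals and those without NC replicate 1 or 2 or Activin+HGF replicate 1 or 2. CSNK2A3, a near copy of CSNK2A1 that can take its reads, was at 13.3 to 23.6 FPKM in NC and 19.5 to 20.2 in Activin+HGF and did not pass. RRP7A, a UTP-C protein, and CSNK2B, the regulatory subunit of casein kinase 2, whose gene overlaps LY6G5B, were called in no comparison either. The other catalytic subunit, CSNK2A2, and NOL6, the RNA-binding core of UTP-C, were not called in any comparison (adjusted p = 0.0517 and 0.0635 after activin).

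Of the 9 other processome factors, which include UTP14A and BMS1, 4 fell after activin (8.41% of all genes). In Activin+HGF against NC 5 fell (15% of all genes). FCF1, an endonuclease, was among the latter. FCF1 measured 8.63, 10.3 and 6.26 FPKM in NC, 10.4, 8.43 and 8.94 in Activin, and 4.18, 3.68 and 4.04 in Activin+HGF. The Activin+HGF libraries lay below all others, and NC and Activin overlapped. The fall in Activin+HGF against NC was 0.77 ± 0.21 (adjusted p = 0.0196), lost without NC replicate 2 or Activin+HGF replicate 2 or 3 and with length and GC offsets. The step from Activin was -0.83 ± 0.21 (adjusted p = 0.0316), lost without Activin replicate 1 or 3 or Activin+HGF replicate 2 or 3, and with length and GC offsets. RBM28 fell by 0.63 ± 0.18 after activin (adjusted p = 0.0376) and by 0.77 ± 0.18 in Activin+HGF against NC (adjusted p = 0.00978), the former call lost in 11 of 17 alternatives, those without any 1 of the NC libraries or Activin replicate 1 or 3 among them, whereas RCL1 and EMG1 were called in no comparison. NAT10, which acetylates cytidines of the small-subunit RNA, fell by 0.96 ± 0.22 in Activin+HGF against NC (adjusted p = 0.00848) and was at -0.43 after activin (adjusted p = 0.212). TCOF1, or treacle, which links RNA polymerase I to RNA modification, fell by 0.67 ± 0.19 after activin (adjusted p = 0.0375), a call lost in 7 of 17 alternatives, those without any 1 of the NC libraries or without Activin replicate 1 or 3 among them.

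**Figure D3:**
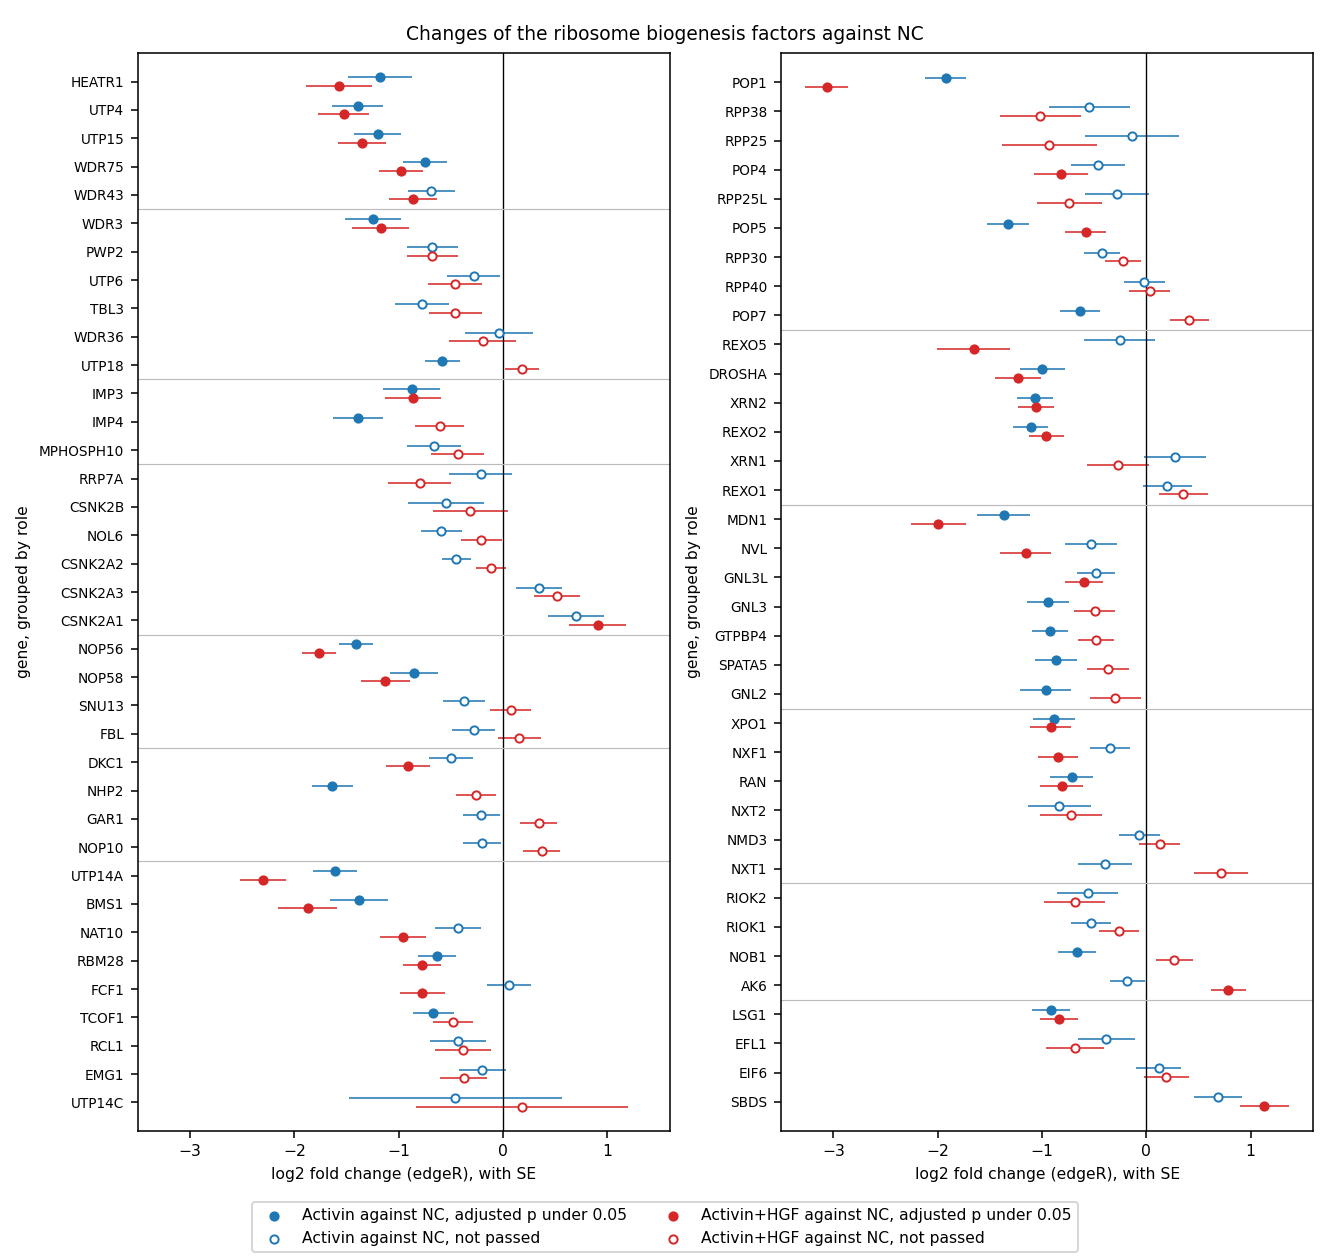
Log2 fold change of each tested member against NC by edgeR, in blue for Activin and in red for Activin+HGF, with bars of 1 SE and filled points at an adjusted p under 0.05. Most points lie left of 0, with POP1 at -3.06 the furthest, and the filled points right of 0 are the Activin+HGF values of SBDS, CSNK2A1 and AK6.

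Within each snoRNP the core proteins differed. After activin 2 of the 4 box C/D proteins and 1 of the 4 box H/ACA proteins fell (8.41% of all genes). In the box C/D particle, NOP56 (ENSG00000101361, chromosome 20, 2652593 to 2658393), a scaffold that holds the guide RNA, measured 48.7, 45.2 and 48.4 FPKM in NC, 18.1, 17.7 and 20.7 in Activin, and 8.45, 12.7 and 13.2 in Activin+HGF. No group overlapped with another. NOP56 fell by 1.41 ± 0.16 on the log2 scale after activin (adjusted p = 0.000388) and stood 3.4-fold below NC in Activin+HGF (adjusted p = 6.91e-05). Its partner NOP58 fell by 0.85 ± 0.23 after activin (adjusted p = 0.028), a call lost without any 1 of the NC libraries or Activin replicate 1, and by 1.13 ± 0.23 in Activin+HGF against NC (adjusted p = 0.00481). By contrast FBL, fibrillarin, the methyltransferase of the same particle, was at 141, 155 and 125 FPKM in NC, 102, 144 and 116 in Activin, and 126, 124 and 131 in Activin+HGF. Its groups overlapped, with log2 fold changes of -0.28 after activin (adjusted p = 0.393) and 0.16 in Activin+HGF against NC (adjusted p = 0.598). SNU13, the fourth core protein, did not pass either. The genes of NOP56 and NOP58, and those of the members GNL3, WDR43 and DKC1, carry snoRNA genes inside their spans. How reads from those snoRNA genes were counted is not given in the sources used here.

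In the box H/ACA particle, NHP2 (ENSG00000145912, chromosome 5, 178149463 to 178153885), a core RNA-binding protein, had the largest rise with HGF. NHP2 measured 64.4, 66.8 and 64.3 FPKM in NC, 19.5, 25.8 and 20.5 in Activin, and 43.8, 42.0 and 46.6 in Activin+HGF. The Activin libraries lay lowest, the Activin+HGF libraries lay between, and no groups overlapped. NHP2 fell 3.10-fold after activin (log2 fold change -1.63 ± 0.20, adjusted p = 0.000491) and rose by 1.37 ± 0.20 with HGF (adjusted p = 0.00488), and neither call was lost in any alternative. In Activin+HGF against NC its log2 fold change was -0.26 (adjusted p = 0.341). The pseudouridine synthase DKC1, dyskerin, fell by 0.91 ± 0.21 in Activin+HGF against NC (adjusted p = 0.00882) and stood at -0.49 after activin (adjusted p = 0.135). GAR1 and NOP10 did not pass, and NOP10, the most abundant of the 74 transcripts, averaged 172 FPKM in NC, 157 in Activin and 181 in Activin+HGF.

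Of the 6 members grouped here as nucleases, 3 fell after activin (8.41% of all genes) and 4 in Activin+HGF against NC (15% of all genes). XRN2, the main nuclear exonuclease acting from the 5′ end, measured 63.6, 57.7 and 61.5 FPKM in NC, 32.3, 24.1 and 36.5 in Activin, and 17.5, 27.9 and 26.8 in Activin+HGF. Every treated library lay below every NC library. XRN2 fell by 1.07 ± 0.17 after activin (adjusted p = 0.00243) and differed by 0.01 between the treated groups. XRN1, its cytoplasmic paralogue, had a log2 fold change of 0.28 after activin (adjusted p = 0.589), with 3.11 and 2.87 FPKM in Activin replicates 1 and 3 and 1.04 in replicate 2. DROSHA, better known for cutting microRNA precursors, fell by 1.00 ± 0.22 after activin (adjusted p = 0.0105) and stood at -1.23 ± 0.22 in Activin+HGF against NC (adjusted p = 0.00229), and the former call was lost without NC replicate 1. REXO2, an exonuclease of short RNAs, fell by 1.11 ± 0.17 after activin (adjusted p = 0.00181) and by 0.96 ± 0.17 in Activin+HGF against NC (adjusted p = 0.00225), and REXO1 was called in no comparison. REXO5, a low-abundance exonuclease, was at 1.10 to 1.35 FPKM in NC, 0.60 to 1.48 in Activin and 0.22 to 0.37 in Activin+HGF. REXO5 fell by 1.40 ± 0.35 with HGF (adjusted p = 0.0288), a call lost without Activin replicate 1 or 3 or Activin+HGF replicate 2 or 3. Its log2 fold change in Activin+HGF against NC was -1.65 ± 0.35 (adjusted p = 0.00565, edgeR), a call kept in all 17 alternatives.

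The GTPases and AAA ATPases of the large subunit fell mostly after activin, when 5 of 7 passed (8.41% of all genes fell). MDN1 (ENSG00000112159, chromosome 6, 89642498 to 89819794), a very large ATPase that strips assembly factors from the large-subunit precursor, measured 6.79, 6.04 and 6.89 FPKM in NC, 3.88, 1.46 and 2.92 in Activin, and 1.25, 1.47 and 1.31 in Activin+HGF. The NC libraries lay above all others, and the lowest Activin library lay within the Activin+HGF range. MDN1 fell by 1.37 ± 0.26 after activin (adjusted p = 0.00512) and stood 3.98-fold below NC in Activin+HGF (adjusted p = 0.000436). GNL3, nucleostemin, a nucleolar GTPase abundant in dividing cells, was at 63.4, 52.5 and 57.1 FPKM in NC and 34.1, 21.3 and 41.0 in Activin. It fell by 0.94 ± 0.20 after activin (adjusted p = 0.00909) and was at -0.49 in Activin+HGF against NC (adjusted p = 0.0812). In Activin+HGF against NC, 3 of 7 fell (15% of all genes), namely MDN1, NVL and GNL3L. The call of GNL3L was lost without any 1 of the NC libraries or Activin+HGF replicate 1 or 3. GNL2, GTPBP4 and SPATA5 had adjusted p-values of 0.0228, 0.00496 and 0.0145 after activin and did not pass in Activin+HGF against NC. After activin the call of GNL3 was lost without NC replicate 1, that of GNL2 without any 1 of the NC libraries or Activin replicate 1, and that of SPATA5 without any 1 of the NC libraries or Activin replicate 3. GTPBP4 passed in Activin+HGF against NC in 7 of 17 alternatives.

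Of the 6 nuclear export genes tested, 2 fell after activin (8.41% of all genes) and 3 in Activin+HGF against NC (15% of all genes). XPO1, the export receptor for both subunits, fell by 0.88 ± 0.20 on the log2 scale after activin (adjusted p = 0.0119) and was at -0.92 ± 0.20 in Activin+HGF against NC (adjusted p = 0.00623). RAN, the GTPase that powers it, measured 129, 81.8 and 77.2 FPKM in NC, 70.6, 59.9 and 54.3 in Activin, and 41.8, 42.5 and 48.6 in Activin+HGF. The groups did not overlap in FPKM, and NC replicate 1 lay far above the other NC libraries. On the scale of TMM-scaled counts the 2 treated groups overlapped, with a log2 fold change of -0.10 from Activin to Activin+HGF (adjusted p = 0.796). The fall of RAN after activin was 0.72 ± 0.21 (adjusted p = 0.0386) and was lost in 10 of 17 alternatives, those without NC replicate 1 or 2 or Activin replicate 1 or 3 among them, and that of XPO1 was lost without NC replicate 1. NMD3, the adaptor between XPO1 and the large subunit, did not pass in any comparison. The export receptor NXF1 and its partner NXT1 differed. NXF1 was at -0.50 from Activin to Activin+HGF (adjusted p = 0.112) and fell by 0.85 ± 0.19 in Activin+HGF against NC (adjusted p = 0.00792). NXT1 rose by 1.11 ± 0.26 with HGF (adjusted p = 0.0233), from 9.70, 16.3 and 11.8 FPKM in Activin to 23.6, 20.1 and 19.8 in Activin+HGF, and the call was lost without Activin replicate 1 or 3 or Activin+HGF replicate 1. The paralogue NXT2 did not pass, and NXF3 did not exceed 0.04 FPKM in any library.

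The 8 factors of late maturation included 3 members that rose in some comparison, NOB1, AK6 and SBDS. From Activin to Activin+HGF 7.41% of all genes rose, and in Activin+HGF against NC 16.4% did. NOB1, the endonuclease that makes the final cut of the small-subunit RNA, was at 51.7, 55.9 and 54.9 FPKM in NC, 32.1, 41.5 and 33.7 in Activin, and 46.7, 55.9 and 57.5 in Activin+HGF. The Activin libraries lay below the others, and NC and Activin+HGF overlapped in FPKM. NOB1 fell by 0.66 ± 0.18 after activin (adjusted p = 0.0301), which was lost without any 1 NC library or Activin replicate 1 or 3, and rose by 0.93 ± 0.18 with HGF (adjusted p = 0.0126), which was lost without Activin replicate 1 or 3. AK6, an adenylate kinase of small-subunit maturation, measured 10.9, 9.22 and 10.6 FPKM in NC, 9.53, 7.84 and 11.4 in Activin, and 13.1, 16.1 and 13.9 in Activin+HGF. The Activin+HGF libraries lay above all others. AK6 rose by 0.97 ± 0.17 with HGF (adjusted p = 0.00795) and stood 0.79 ± 0.17 above NC (adjusted p = 0.00563), and with library totals neither call was made. The former call was also lost without Activin replicate 1. Its gene overlaps TAF9 on the same strand, so reads of the overlap may belong to either. UTP18 of the UTP-B subcomplex also rose with HGF (0.76 ± 0.17, adjusted p = 0.0178), although its FPKM of 16.2 to 20.2 in Activin and 18.2 to 29.3 in Activin+HGF overlapped, while its TMM-scaled counts did not, and the call was lost in 8 of 17 alternatives, among them those without Activin replicate 1 or 3 or Activin+HGF replicate 2 or 3.

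SBDS (ENSG00000126524, chromosome 7, 66987680 to 66995586), which with the GTPase EFL1 releases EIF6 from the new large subunit, was the member furthest above NC. SBDS measured 22.7, 19.1 and 23.0 FPKM in NC, 35.9, 32.8 and 41.7 in Activin, and 49.0, 31.5 and 32.6 in Activin+HGF. Every treated library lay above every NC library. The log2 fold change was 0.69 ± 0.23 after activin (adjusted p = 0.0681) and 1.13 ± 0.24 in Activin+HGF against NC (adjusted p = 0.00511), and no alternative ended the latter call. EFL1 had a log2 fold change of -0.69 in Activin+HGF against NC (adjusted p = 0.0844), and EIF6 one of 0.19 (adjusted p = 0.534).

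RIOK1 and RIOK2, kinases of the small-subunit precursor, did not pass in any comparison (RIOK2 log2 fold change -0.69 in Activin+HGF against NC, adjusted p = 0.1). LSG1, a GTPase that releases NMD3 from the large subunit, fell by 0.91 ± 0.18 after activin (adjusted p = 0.00677) and was at -0.84 ± 0.18 in Activin+HGF against NC (adjusted p = 0.00623).

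Longer transcripts tended to have more negative changes in the comparisons that involve HGF. Across the 73 members, Pearson's r between the log2 fold change and the log2 length of the longest annotated transcript was -0.10 after activin, -0.43 from Activin to Activin+HGF and -0.37 in Activin+HGF against NC, with Spearman's rho of -0.15, -0.40 and -0.35. Over the 20639 tested genes with a known length, r was -0.08 from Activin to Activin+HGF and -0.07 in Activin+HGF against NC. These are correlations across genes of the same libraries, and genes are not independent replicates. In Activin+HGF against NC the median of the 12 members under 1500 bases was 0.18, beside 0.09 for all genes of that length. It was -0.46 for the 22 members of 1500 to under 3000 bases, -0.83 for the 24 of 3000 to under 5000 bases and -0.48 for the 15 of 5000 bases or more, where all genes had medians of 0.04, -0.06 and -0.20. After activin the median was below that of all genes at every length, from -0.28 in the shortest class to -0.87 in the longest.

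Length also separated the libraries. The median of all tested genes of 5000 bases or more, minus that of genes under 1500 bases, each relative to NC, was -0.18 in Activin replicate 2, beside 0.15 and 0.07 in the other Activin libraries. It lay between -0.25 and -0.14 in the Activin+HGF libraries and between -0.05 and 0.04 in NC. The members of 5000 bases or more had medians of -1.01 in Activin replicate 2 and of -0.78 and -0.86 in the other Activin libraries. The members under 1500 bases had medians of 0.04 in Activin replicate 2, -0.56 and -0.45 in Activin replicates 1 and 3, and -0.04, 0.18 and 0.23 in the Activin+HGF libraries. Offsets for length and GC content, an alternative added after the data were seen, gave 34 members lower and 2 higher after activin, 13 higher and 2 lower from Activin to Activin+HGF, and 34 lower and 7 higher in Activin+HGF against NC. With these offsets the shares of all genes were 11.6% lower and 11.2% higher after activin, 11.4% higher and 7.04% lower from Activin to Activin+HGF, and 15.9% lower and 19% higher in Activin+HGF against NC. The part of transcript length in the other results was not tested.

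Promoters were read for 69 of the 74 members, with 79 windows among them because some genes have several, from RefSeq starts on GRCh38.p14. A window spans 250 bases before the start and 50 after it, and letters were searched on both strands. The letters CACGTG, the E-box that MYC and MAX bind, stood in 29.1% of the members' windows, in 7.26% of all 35116 windows and in 9.0% of the 17816 windows of genes tested. CGGAAG, the core bound by ETS factors, stood in 57% of the members' windows, 19.5% of all windows and 27.2% of those of genes tested. The palindromic motif of NRF1 stood in 5.06%, 1.24% and 1.75%. Windows of members that fell in Activin+HGF against NC held the E-box in 34.5% of 29 and those of the other members in 26.0% of 50, and those of members that fell after activin in 41.9% of 31, beside 20.8% of the other 48. For CGGAAG the same shares were 55.2% and 58.0%, and 58.1% and 56.2%. A match in letters does not show that a factor binds there.

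The 250 bases before the start are given for 3 of the 4 members with the deepest falls in Activin+HGF against NC and for SBDS, which rose the most. Capitals mark CACGTG or CGGAAG, and all are written along the strand of the gene. UTP14A (chrX:129905914-129906163, plus strand) holds 1 of each, with the E-box beginning 241 bases before the start. MDN1 (chr6:89819795-89820044, minus strand) holds an E-box 155 bases before the start, and BMS1 (chr10:42782545-42782794, plus strand) holds a CGGAAG 225 bases before it. SBDS (chr7:66995587-66995836, minus strand) holds none of the 3 motifs. The other 2 members that rose in Activin+HGF against NC held motifs, an E-box and a CGGAAG in a window of AK6 and a CGGAAG in that of CSNK2A1, while the windows of NOP56 and HEATR1, which fell, held none.
UTP14A: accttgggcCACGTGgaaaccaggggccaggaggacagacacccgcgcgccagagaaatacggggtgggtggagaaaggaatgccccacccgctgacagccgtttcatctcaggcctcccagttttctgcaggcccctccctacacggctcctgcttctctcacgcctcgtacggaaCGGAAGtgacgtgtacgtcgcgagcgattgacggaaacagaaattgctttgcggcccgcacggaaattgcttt
MDN1: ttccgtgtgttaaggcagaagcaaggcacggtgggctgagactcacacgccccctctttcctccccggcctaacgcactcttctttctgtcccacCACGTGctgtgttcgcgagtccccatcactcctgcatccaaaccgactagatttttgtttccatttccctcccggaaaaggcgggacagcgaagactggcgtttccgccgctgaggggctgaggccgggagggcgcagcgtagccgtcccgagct
BMS1: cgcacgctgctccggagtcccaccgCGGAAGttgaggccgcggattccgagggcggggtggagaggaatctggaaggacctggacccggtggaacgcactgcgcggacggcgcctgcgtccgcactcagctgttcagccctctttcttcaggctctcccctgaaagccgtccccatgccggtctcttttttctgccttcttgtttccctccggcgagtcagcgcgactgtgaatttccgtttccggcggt
SBDS: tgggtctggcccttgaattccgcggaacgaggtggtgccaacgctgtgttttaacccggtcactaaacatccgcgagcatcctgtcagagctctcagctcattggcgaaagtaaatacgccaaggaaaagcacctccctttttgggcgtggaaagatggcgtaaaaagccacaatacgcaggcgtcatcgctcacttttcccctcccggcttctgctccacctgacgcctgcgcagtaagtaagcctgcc

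Genes of ribosome production that the KEGG term leaves out were followed in lists written from general knowledge, of which 97 of 98 symbols had a row. After activin 41 of the 97 fell (42.3%) and 2 rose (2.06%), against 8.41% and 9.58% of all genes. From Activin to Activin+HGF 10 rose (10.3%) and 2 fell (2.06%), against 7.41% and 5.45% of all genes. In Activin+HGF against NC 38 fell (39.2%) and 10 rose (10.3%), against 15% and 16.4% of all genes. The same shares of all genes stand beside the counts of the separate lists below. The 97 had median log2 fold changes of -0.65, 0.20 and -0.42, beside 0.02, -0.04 and -0.03 over all genes. Of the 38 large-subunit assembly factors, 19 fell after activin and 20 in Activin+HGF against NC. NOP16 fell most after activin (log2 fold change -1.44, adjusted p = 0.000409), and NOP53 rose in Activin+HGF against NC (1.34, adjusted p = 0.001). Of the 20 further small-subunit factors 9 fell after activin, TSR1 the most (log2 fold change -1.28, adjusted p = 0.00157), and DDX47 rose with HGF (1.32, adjusted p = 0.0295), a call lost without Activin replicate 1 or 3 or Activin+HGF replicate 1. Of the 14 genes of the RNA exosome and its cofactors, which trim precursors from the 3′ end, 6 fell after activin and 5 in Activin+HGF against NC, with EXOSC10 at -1.12 (adjusted p = 0.00803) and -1.41 (adjusted p = 0.0015). In the latter comparison the lowest log2 fold change of this list was -1.64, in another gene, and 1 gene rose.

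RNA polymerase I, which transcribes the ribosomal RNA precursor, was lower in some of its parts. Of its 15 subunits and factors 5 fell after activin, and in Activin+HGF against NC 5 fell and 3 rose. The largest subunit, POLR1A, fell by 1.78 in Activin+HGF against NC (adjusted p = 0.00264), and POLR1B fell by 1.22 after activin (adjusted p = 0.000804). TAF1D rose by 1.33 in Activin+HGF against NC (adjusted p = 0.0115). Of the 10 nucleolar scaffold and MYC network genes, 2 fell and 2 rose after activin. NCL fell by 0.90 (adjusted p = 0.00228) and NPM1 by 0.86 (adjusted p = 0.00341) after activin. MYC measured 4.01, 5.01 and 4.16 FPKM in NC, 2.43, 29.02 and 20.8 in Activin, and 4.37, 2.72 and 25.0 in Activin+HGF. In each treated group MYC lay below or near NC in at least 1 library and far above it in another, and it did not pass after activin (log2 fold change 1.96 ± 0.90, adjusted p = 0.167). MXD1 and MNT, which compete with MYC for MAX, rose after activin, by 2.01 (adjusted p = 0.00134) and 0.62 (adjusted p = 0.0418), and the call of MNT was lost without NC replicate 1 or 3 or Activin replicate 1 or 2.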

How the data were processed

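RNA was sequenced from HCT116 cells in 9 libraries, 3 each of NC, Activin and Activin+HGF, grouped by the treatment in their labels. The authors deposited counts per gene, not normalized, and FPKM values of the same genes, normalized by them for library size and gene length, in 1 table with KEGG terms. The submitters' processing notes name cutadapt 1.9, HISAT2 2.0.4 and StringTie 1.3.4d. The program that made the counts and the genome build are not given in the sources used here. All 74 members overlap the gene of the same ID in GENCODE release 29 (GRCh38), and coordinates are those of the table. Of the counts from 1 to 40, 35.0% were multiples of 4, where an even spread gives 25%. No program is named for this, and counts divided by 4 were tried.

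Counts were tested on the whole table with edgeR 4.0.16 in R 4.3.3 (filterByExpr, TMM factors, glmQLFit and glmQLFTest with a mean for each group), which kept 20988 genes. Fold changes are those of edgeR, and p-values were adjusted by Benjamini-Hochberg over all genes tested. A gene was called at an adjusted p under 0.05, and a 2-fold rule was counted beside it. SE was approximated from the log2 fold change and its F statistic. FPKM gave the levels per library. With 3 libraries a group, their number limits the precision.

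Alternatives were library totals, DESeq2-style size factors in edgeR, 2 other filters, a replicate block, fits of 2 groups, DESeq2 1.42.0, limma 3.58.1 on log2(FPKM + 1) and log2(FPKM + 0.1), counts divided by 4, stricter thresholds, each library left out in turn and, added after the data were seen, length and GC offsets. The fitting scripts were tested on simulated data.

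The members, the role lists and the lists outside the term were chosen with earlier results of these data known, so no test was run over a list. Named were the 8 largest rises and falls of each comparison, the 5 most abundant members, a defining enzyme or scaffold of each role, members with near copies, members not tested, and MYC. For the outside lists the rule was the 2 largest changes in each direction, but it was not followed in full. The genes named from those lists are a selection. Other members named above were chosen after their values were seen.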

Additional observations from a re-analysis of the deposited data

How the results depend on the processing

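None of the tested members or of the 13 named genes outside the term changed direction, where past the threshold, in the 17 alternative fits of each comparison. With library totals, members called after activin were 1 higher and 22 lower (median -0.48), from Activin to Activin+HGF 4 and 8 (median -0.28), and in Activin+HGF against NC 1 and 40 (median -0.85). The medians of all genes were then 0.098, -0.38 and -0.30. Of all genes, 11.7% were higher and 20.4% lower in Activin+HGF against NC with this scaling. Fits of the 2 groups compared gave 2 higher and 29 lower after activin and 2 higher and 1 lower from Activin to Activin+HGF. In Activin+HGF against NC they gave 5 higher and 34 lower. Of all genes, 11.1% and 9.74%, 1.94% and 1.7%, and 19.6% and 17.6% were higher and lower, in the same order. DESeq2 gave 1 higher and 36 lower after activin and 10 higher and 4 lower from Activin to Activin+HGF. In Activin+HGF against NC it gave 4 higher and 34 lower. DESeq2 called 13.2% and 11.3%, 11.3% and 10.3%, and 19.1% and 18.4% of all genes higher and lower, in the same order. With limma on log2(FPKM + 1), 1 was higher and 24 lower after activin (median -0.43). The counts were 5 and 7 from Activin to Activin+HGF (median -0.30), and 2 and 43 in Activin+HGF against NC (median -0.73). On log2(FPKM + 0.1) they were 1 and 22, 5 and 7 (median -0.34), and 1 and 41 (median -0.89). Of all genes, limma on log2(FPKM + 1) called 12.1% higher and 8.94% lower, 4.08% and 13%, and 11.2% and 22.4%. On log2(FPKM + 0.1) the shares of all genes were 11.7% and 7.85%, 3.93% and 12.9%, and 11.5% and 22.7%. Length and GC offsets gave 2 higher and 34 lower after activin and 13 higher and 2 lower from Activin to Activin+HGF. In Activin+HGF against NC they gave 7 higher and 34 lower with a median of -0.48. The shares of all genes with these offsets are given above. At an adjusted p under 0.01, 0 were higher and 15 lower after activin, and 2 were higher and 1 lower from Activin to Activin+HGF. In Activin+HGF against NC 2 were higher and 22 lower. Of all genes, 4.53% and 3.51%, 1.4% and 0.924%, and 9.73% and 6.91% were higher and lower at that threshold. With the 2-fold rule 0 were higher and 14 lower after activin, and 3 were higher and 2 lower from Activin to Activin+HGF. In Activin+HGF against NC 1 was higher and 14 lower by that rule, against 11.3% and 10.2% of all genes. The cause of these differences was not tested.

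Leaving out 1 library in turn gave 0 to 1 higher and 14 to 36 lower after activin (median -0.60 to -0.51), 1 to 12 higher and 1 to 10 lower from Activin to Activin+HGF (median -0.077 to 0.11), and 2 to 3 higher and 24 to 29 lower in Activin+HGF against NC (median -0.65 to -0.46). Of all genes, 5.07% to 8.9% were higher and 3.73% to 9.75% lower after activin. These shares were 1.28% to 12% and 1.85% to 8.53% from Activin to Activin+HGF, and 10.4% to 13.9% and 8.58% to 11.8% in Activin+HGF against NC. The labels do not say whether the replicate numbers pair libraries across groups. Deviations from the group means correlated between -0.122 and 0.234 for libraries of the same number, which does not decide it. With the replicate number as a block, 0 rose and 28 fell after activin, 7 rose and 2 fell from Activin to Activin+HGF, and 3 rose and 30 fell in Activin+HGF against NC. Of all genes, 8.37% and 7.65%, 5.8% and 3.94%, and 15.4% and 13.7% rose and fell with the block. Of 1615 alternative values of these genes where the main test passed, 1388 stayed past the threshold and 227 did not, and 181 values passed where the main test did not.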
